A study of Mus musculus with 8 samples.

Results

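*B3gat2*, *Wdfy1*, *Scly*, *Gm17090*, *1810006J02Rik* and *Ptpn4* are 6 genes of mouse chromosome 1 whose RNA differed by genotype in CD8+ T cells both before and after culture. They were chosen by name from the 8 genes of that chromosome whose differences at day 0 and at day 5 each passed an adjusted p of 0.05, so those differences are described here without a test. The other 2, *Ifi204* and *Fcgr3*, pass the same threshold and were not among the names chosen. Their counts are given further on. All 6 were among the 48321 gene symbols listed and among the 12597 genes with enough counts to be fitted, of which 812 could be placed on chromosome 1.

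The libraries were made from RNA of splenic CD8+ T cells of C57BL/6 mice, taken from the spleen (day 0) or after in vitro culture (day 5), with 2 libraries in each of 4 groups. The cells were stimulated in vitro, and the study's methods describe antibodies to CD3e and CD28 followed either by IL-2 or by renewed stimulation with IL-2; which of these the day 5 cells had is not given in the sources used here. WT and KO are the labels' own words, and the KO mice carry *Satb1* F/F with *E8I-cre*, in which an enhancer of the *Cd8* locus drives Cre recombinase in CD8+ T cells. The study's methods describe young adult mice of mixed sexes in general, and the labels give neither age nor sex for these libraries. They also do not say whether the WT mice carried a floxed allele or Cre, or whether the 2 libraries of a group came from different mice, so p-values measure only the spread between these libraries. SATB1 is a nuclear protein that binds AT-rich DNA and organises chromatin in thymocytes and T cells.

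*Satb1* itself did not follow the labels at day 0. Its level was 97.8 and 91.6 CPM (counts scaled to a common library size, corrected for composition) in the WT libraries and 144 and 125 CPM in those labelled KO, and at day 5 it was 96.5 and 116 CPM against 56.5 and 62.3 CPM. The log2 difference, labelled KO over WT, was 0.51 at day 0 and did not pass (adjusted p = 0.125), and it was -0.84 at day 5 (adjusted p = 0.0162). *Satb1* was thus called lower under the KO label at day 5 and not at day 0, where both labelled KO libraries were above both WT libraries, and each direction given at day 0 rests on that label. All 36 genes called at both days had the same sign at both. SATB1 is known as a repressor of *Foxp3* and *Pdcd1* in T cells. The study describes this in CD4+ T cells, and for CD8+ T cells it cites derepression of *Pdcd1* in activated cells only. *Foxp3*, looked up after the data were seen, was called higher under the KO label at both days (log2 differences of 2.48 and 1.73), and *Pdcd1*, looked up likewise, was called higher at day 5 (3.75, adjusted p = 0.000241) and had a log2 difference of 0.91 at day 0 (adjusted p = 0.273). The *Satb1* counts cover the whole gene, so reads from exons outside the floxed part are included. Gene counts per library ranged from 4170126 to 11117971, the deepest being day 0 labelled KO replicate 1. The 6 CD8+ T cell markers summed to between 6247 and 10850 CPM. The 3 CD4+ T cell markers summed to 1.36 to 3.58 CPM in WT and 6.06 to 6.26 CPM in labelled KO libraries at day 0. At day 5 they summed to 2.65 to 3.17 and 3.13 to 3.22 CPM. Of these 3 markers 2 had enough counts to be tested, and neither was called. *Cd8a* was called higher under the KO label at day 5 (log2 difference 0.60, adjusted p = 0.0155). The 6 B cell markers summed to 124 to 125 CPM in WT and 144 to 168 CPM in labelled KO libraries at day 0, and to 67.6 to 68.9 and 81.1 to 84.6 CPM at day 5, mostly *Cd79b*. The 6 myeloid markers, mostly *Cst3*, summed to 112 to 136 and 93.0 to 112 CPM at day 0. At day 5 they summed to 203 to 212 and 271 to 273 CPM. Only 1 of the 6 B cell markers and 4 of the 6 myeloid markers had enough counts to be tested. None of these was called. The 5 gamma-delta T cell markers summed to 62.2 to 94.1 CPM in WT and 159 to 161 CPM in labelled KO libraries at day 0, and to 321 to 347 and 514 to 611 CPM at day 5. Of these markers, 3 were called by genotype at day 0 and 2 at day 5, whereas *Trdc*, the delta chain constant region, was not called at either day and *Sox13* had at most 7 counts in a library. The part of these markers in the differences described below was not tested, and in bulk RNA fewer cells of a type cannot be told apart from less RNA per cell.

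The 6 genes belong to unrelated families. *B3gat2* encodes a glucuronyltransferase of the HNK-1 carbohydrate pathway, which caps glycan chains with glucuronic acid before sulfation. *Scly* encodes selenocysteine lyase, the enzyme that breaks selenocysteine down to alanine and selenide so that selenium can be used again. *Ptpn4* encodes a protein tyrosine phosphatase with FERM and PDZ domains that can act on the zeta chain of the T cell receptor complex and on the TLR4 adaptor TRAM. *Wdfy1* encodes a WD-repeat and FYVE-domain protein that binds phosphatidylinositol 3-phosphate on early endosomes and helps TLR3 and TLR4 to recruit the adaptor TRIF. *Gm17090* and *1810006J02Rik* are long noncoding RNAs.

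In the mouse build GRCm38, with GENCODE M21 gene models, the genes were spread over much of the chromosome and lay on both strands. *B3gat2* is at chr1:23761753-23849158 on the plus strand, *Wdfy1* at chr1:79702262-79776143 on the minus strand, *Scly* at chr1:91298338-91321075 on the plus strand and *Gm17090* at chr1:91305092-91321101 on the minus strand. *1810006J02Rik* follows at chr1:98131456-98144655 on the plus strand and *Ptpn4* at chr1:119652467-119837613 on the minus strand. The distances from each gene to the next were 55853, 11522, 6810 and 21508 kb, apart from *Scly* and *Gm17090*, whose spans overlap.

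*Gm17090* is annotated as antisense to *Scly*. Bases 120 to 338 of its single transcript of 490 bases are shown because 159 of them, in capitals (bases 150 to 308), lie in 1 exon of *Scly* on the opposite strand (chr1:91305274-91305432), and 8 of 10 *Scly* transcripts hold their reverse complement.

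Gm17090 (GENCODE M21 transcript, 5′ to 3′): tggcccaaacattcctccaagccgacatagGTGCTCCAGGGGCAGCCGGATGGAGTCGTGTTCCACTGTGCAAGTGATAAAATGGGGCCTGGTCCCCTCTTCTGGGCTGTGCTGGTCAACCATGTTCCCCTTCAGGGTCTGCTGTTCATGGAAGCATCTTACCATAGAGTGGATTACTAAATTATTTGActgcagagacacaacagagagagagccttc

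This shared stretch was 32.4% of the exon bases of *Gm17090* and 3.50% of the 4549 exon bases of *Scly*. Whether the counting used the strand of a read is not given in the sources used here. It is therefore unknown for which of these 2 genes, if either, reads from this stretch were counted. Records classed as ambiguous in counting were 0.466% to 0.571% of a library.

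RefSeq promoter windows (GRCm38.p6, 250 bases before and 50 after the annotated start) were found for 3 of the 6 genes. Those of *Scly*, at chr1:91298088-91298387, and of *1810006J02Rik*, at chr1:98131217-98131516, are printed because both genes moved the same way and their base composition lies on opposite sides of the median. Capitals mark the longest run made of A and T alone, or the first of them where several have that length, as in *Scly*.

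Scly promoter (plus strand): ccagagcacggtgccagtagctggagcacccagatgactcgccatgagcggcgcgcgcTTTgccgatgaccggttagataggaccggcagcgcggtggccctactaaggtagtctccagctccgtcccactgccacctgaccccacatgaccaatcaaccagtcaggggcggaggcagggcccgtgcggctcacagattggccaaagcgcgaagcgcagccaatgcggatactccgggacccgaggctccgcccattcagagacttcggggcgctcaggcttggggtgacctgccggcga

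1810006J02Rik promoter (plus strand): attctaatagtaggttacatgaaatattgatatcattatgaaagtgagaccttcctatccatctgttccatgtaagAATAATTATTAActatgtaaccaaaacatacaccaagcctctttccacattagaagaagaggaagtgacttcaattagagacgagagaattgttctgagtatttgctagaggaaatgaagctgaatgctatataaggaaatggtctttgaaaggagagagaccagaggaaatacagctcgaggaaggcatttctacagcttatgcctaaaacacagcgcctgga

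A and T made up 34.3% of the *Scly* window, 63.0% of the *1810006J02Rik* window and 29.0% of the *Ptpn4* window at chr1:119837022-119837321 (minus strand), against a median of 47.3% over 32851 mouse windows. The *Ptpn4* window lies within the first GENCODE exon block of that gene (chr1:119836902-119837613), so RefSeq and GENCODE place its start differently. The longest run of A and T was 3 bases in *Scly*, 6 in *Ptpn4* and 12 in *1810006J02Rik*, where the median was 7. *Ptpn4* held 44 CG pairs and *Scly* 26, compared with a median of 7, and *1810006J02Rik* held 3. Searched on both strands, CCAAT occurred 3 times in the *Scly* window and in neither of the other two, with 37.4% of all windows holding it, and TATATAA occurred once, in *1810006J02Rik*, with 3.24% of all windows holding it. These are descriptions of letters. Of the 3 windows, 1 was rich in A and T and the other two were poor.

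Levels in each library are given next, starting with the enzymes. *Scly* stood at 42.6 and 38.4 CPM in the WT libraries of day 0 and at 139 and 124 CPM in those labelled KO. After culture it stood at 33.9 and 30.4 CPM in WT and at 101.2 and 101.3 CPM in labelled KO. All 4 labelled KO libraries were above all 4 WT libraries, and the log2 difference, labelled KO over WT, was 1.70 (SE 0.15, 2 libraries per group) at day 0 and 1.65 (SE 0.15) at day 5, about 3.24-fold and 3.14-fold.

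*B3gat2* showed a smaller difference in the same direction. It was at 19.0 and 13.3 CPM in WT and 33.3 and 35.6 CPM in labelled KO libraries at day 0, and at 18.7 and 18.3 CPM against 40.3 and 35.0 CPM at day 5. No labelled KO library overlapped a WT library, and the log2 differences were 1.08 (SE 0.21) and 1.02 (SE 0.21).

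*Ptpn4* had the largest estimate of the 6 at day 0, with errors that overlap those of *Scly* (1.70, SE 0.15) and *Gm17090* (1.55, SE 0.32). The levels of *Ptpn4* at day 0 were 30.2 and 24.0 CPM in WT and 97.4 and 103 CPM in labelled KO libraries. At day 5 they were 18.0 and 14.5 CPM against 33.3 and 41.3 CPM. The log2 difference was 1.88 (SE 0.19) at day 0 and 1.19 (SE 0.20) at day 5, so the labelled KO level was 3.67-fold and 2.28-fold that of WT. Over both days the ranges came close without overlapping, the highest WT library being at 30.2 CPM (day 0) and the lowest labelled KO library at 33.3 CPM (day 5).

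*Wdfy1* was the only one of the 6 with the lower level under the KO label. It was at 42.9 and 37.8 CPM in WT and 22.7 and 20.9 CPM in labelled KO libraries at day 0, and at 41.3 and 52.5 CPM against 15.5 and 15.5 CPM at day 5. The log2 difference was -0.88 (SE 0.19) at day 0 and -1.59 (SE 0.20) at day 5, that is 1.84-fold and 3.02-fold lower, and no library of one label reached the range of the other.

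The noncoding *1810006J02Rik* was at 23.6 and 21.7 CPM in WT and 45.5 and 38.7 CPM in labelled KO libraries at day 0, and at 11.6 and 11.3 CPM against 27.2 and 29.3 CPM at day 5. Its log2 differences were 0.90 (SE 0.18) and 1.30 (SE 0.20). It shares no exon base with another annotated gene, so the overlap described for *Scly* does not apply to it. *Gm17090* was the least abundant in CPM, which is not corrected for its short length. It had 17, 16, 13 and 10 counts in the 4 WT libraries (3.04 and 3.62 CPM at day 0, 2.29 and 2.41 CPM at day 5). The libraries labelled KO held 125 and 47 counts at day 0 and 51 and 49 at day 5, or 10.7, 8.62, 9.38 and 9.28 CPM. The log2 differences were 1.55 (SE 0.32) and 1.98 (SE 0.35), the widest errors of the 6.

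**Figure D1:**
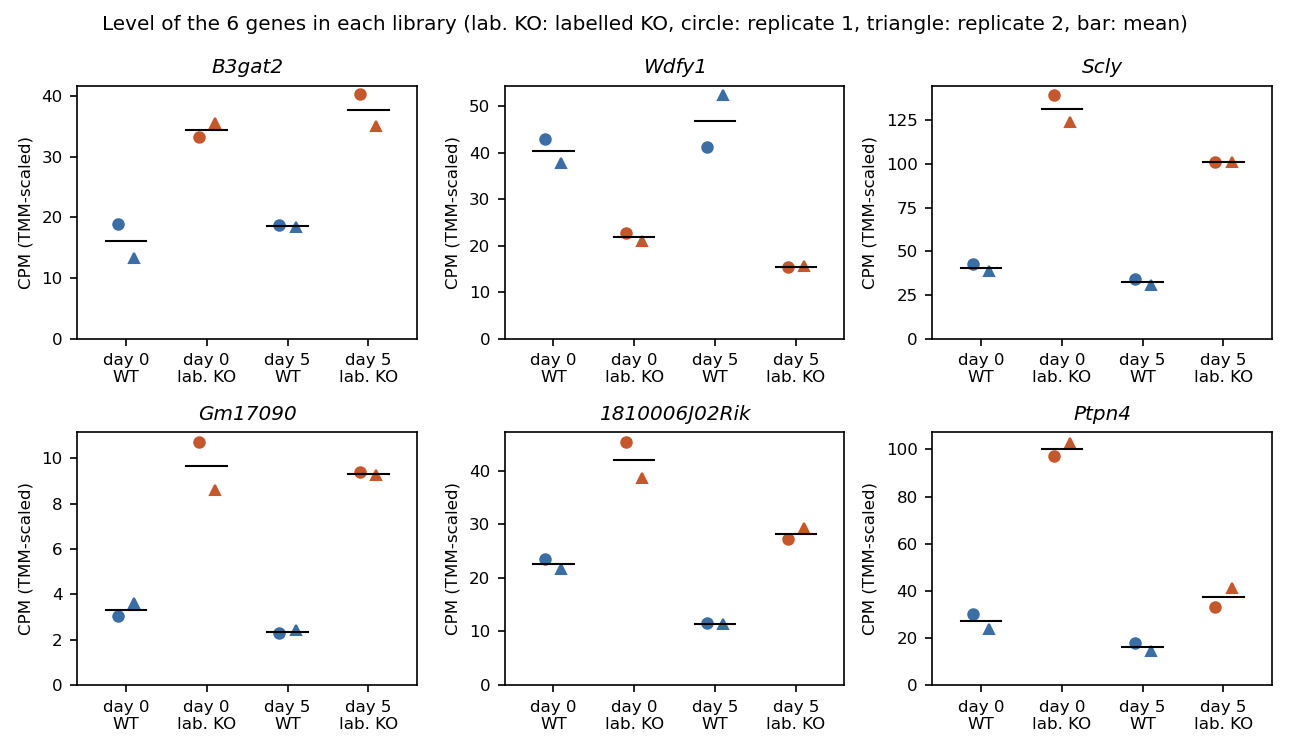
Each panel plots 1 gene as CPM in the 8 libraries by day and label, with circles for replicate 1, triangles for replicate 2 and a bar at the mean. *Wdfy1* is lower in every library labelled KO and the other 5 genes are higher, differences by which the genes were chosen. For *Ptpn4* the gap between labels is wider at day 0 (means of 27.1 and 100.1 CPM) than at day 5 (16.2 and 37.3 CPM).

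The 6 genes named thus split into 5 with the higher and 1 with the lower level under the KO label, at both days. Of all tested genes 0.286% were called at both days, 0.198% higher and 0.0873% lower at both, and since the choice used these contrasts nothing is read from those shares. For the same reason nothing is read from the lack of overlap between the labels. The share of all tested genes without such overlap was not counted. The values nearest to the threshold were those of *Gm17090* and *Wdfy1*, whose larger adjusted p of both days was 0.0308 and 0.0324. Just outside it were *Gm16340* at 0.0510 (log2 differences of -5.16 and -4.48, on at most 31 counts a library), *Smap1* at 0.0611 (1.22 and 0.76) and *Fam129a* at 0.0671 (1.51 and 0.93).

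Corrected for exon length, the genes did not keep 1 order. In WT at day 0 the mean level was 12.0 CPM per kb of exon for *1810006J02Rik*, 8.90 for *Scly*, 6.79 for *Gm17090*, 6.22 for *Wdfy1*, 2.60 for *B3gat2* and 2.39 for *Ptpn4*. In labelled KO at day 0 *Scly* led with 28.9 CPM per kb and *Wdfy1* was last with 3.36. In WT at day 5 *Wdfy1* (7.23) and *Scly* (7.06) led and *Ptpn4* was last with 1.43 CPM per kb, and in labelled KO at day 5 *Scly* again led with 22.3 CPM per kb and *Wdfy1* was again last with 2.39. Neighbours such as *Wdfy1* and *Scly* in WT at day 5, or *B3gat2* and *Ptpn4* in WT at day 0, overlapped in their libraries and have no order beyond that spread.

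*Ptpn4*, *1810006J02Rik* and *Scly* fell in culture. The change from day 0 to day 5 averaged over both labels is orthogonal to the genotype differences that chose the genes and was tested (quasi-likelihood test of edgeR, p-values adjusted by Benjamini-Hochberg over all 12597 genes). On the log2 scale *Ptpn4* fell by 1.08 (SE 0.14, adjusted p = 2.0e-05), *1810006J02Rik* by 0.78 (SE 0.13, adjusted p = 0.000271) and *Scly* by 0.36 (SE 0.10, adjusted p = 0.0100). The averaged changes of *B3gat2*, *Wdfy1* and *Gm17090* were 0.16 (SE 0.15), -0.14 (SE 0.13) and -0.28 (SE 0.24) and did not pass, so 3 of the 6 were called lower and none higher, where 30.9% of all tested genes were called lower and 30.7% higher. The call of *Scly* was lost without day 0 WT replicate 1 (log2 change -0.31, adjusted p = 0.0511).

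The changes within each label are built from the same group means as the genotype differences and are given as a description. *Ptpn4* went from a mean of 27.1 ± 4.43 CPM (SD, n = 2) to 16.2 ± 2.50 in WT and from 100.1 ± 3.82 to 37.3 ± 5.64 in labelled KO, log2 changes of -0.74 (SE 0.21) and -1.42 (SE 0.18). *1810006J02Rik* went from 22.7 ± 1.35 to 11.5 ± 0.223 CPM in WT and from 42.1 ± 4.77 to 28.3 ± 1.5 CPM in labelled KO, -0.98 (SE 0.20) and -0.58 (SE 0.18). In both genes, and under both labels, every day 5 library was below every day 0 library. The changes in WT and labelled KO were -0.33 (SE 0.16) and -0.38 (SE 0.14) for *Scly*, 0.21 (SE 0.18) and -0.50 (SE 0.20) for *Wdfy1*, 0.19 (SE 0.22) and 0.13 (SE 0.19) for *B3gat2*, and -0.49 (SE 0.39) and -0.06 (SE 0.29) for *Gm17090*.

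**Figure D2:**
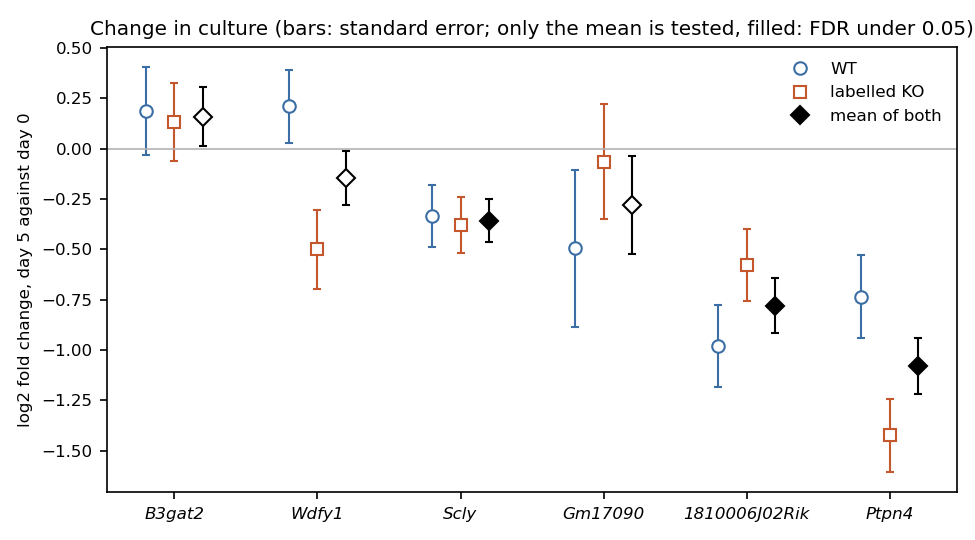
The log2 change from day 0 to day 5 is plotted for each gene in WT (circles), in labelled KO (squares) and averaged over both (diamonds), with bars of 1 standard error, and diamonds are filled where the adjusted p was under 0.05. The filled diamonds are those of *Scly* (-0.36), *1810006J02Rik* (-0.78) and *Ptpn4* (-1.08).

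The genotype differences of each day can be set beside one another as values only. The day 5 difference minus the day 0 difference was -0.71 (SE 0.27) for *Wdfy1*, which was lower still under the KO label at day 5, and -0.69 (SE 0.28) for *Ptpn4*, whose difference was smaller at day 5. It was -0.06 for *B3gat2*, -0.05 for *Scly*, 0.43 (SE 0.48) for *Gm17090* and 0.40 (SE 0.27) for *1810006J02Rik*.

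*Scly* and *Gm17090*, the overlapping pair, kept a nearly fixed ratio of counts. *Gm17090* had between 6.77% and 9.41% of the *Scly* count in the 8 libraries, and both ends of that range came from WT libraries. A second pair overlaps more: 2076 of the 6203 exon bases of *B3gat2* (33.5%) lie in exons of *Smap1* on the opposite strand, which is 58.1% of the exon bases of *Smap1*. *Smap1* encodes a GTPase-activating protein for ARF6 that works in clathrin-dependent endocytosis. The *B3gat2* count was between 57.0% and 77.7% of the *Smap1* count.

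*Smap1* was at 25.2 and 19.2 CPM in WT and 50.7 and 53.8 CPM in labelled KO libraries at day 0, and at 32.8 and 28.0 CPM against 51.9 and 51.5 CPM at day 5. Its log2 difference was 1.22 (SE 0.18, adjusted p = 0.00510) at day 0 and 0.76 (SE 0.18, adjusted p = 0.0611) at day 5. How many of the reads counted for *B3gat2* and *Smap1* came from each gene, and whether shared bases were counted for either, cannot be told from these counts. *Wdfy1* shares 126 of its 6488 exon bases (1.94%) with *Mrpl44* on the other strand, and *Ptpn4* shares none of its 11321 exon bases.

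**Figure D3:**
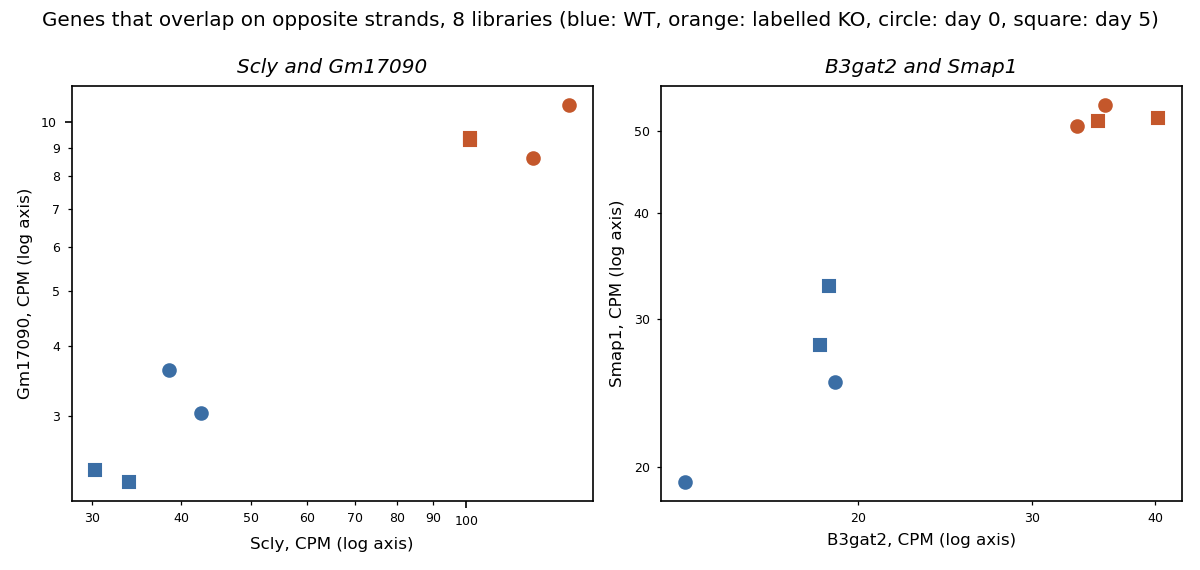
Levels of 2 overlapping gene pairs are plotted against each other on log axes in CPM, with 1 point for each of the 8 libraries (blue WT, orange labelled KO, circles day 0, squares day 5). In both panels the 4 labelled KO libraries lie above and to the right of the 4 WT libraries, and *Gm17090* stays between 6.77% and 9.41% of the *Scly* count.

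The neighbourhoods of the 6 genes were examined through the 5 nearest tested genes on each side, which were not chosen by value. Together these were 50 different genes, as *Scly* and *Gm17090* share theirs. *Smap1* at day 0 was the only one called, 1 of 50, where 1.80% of all tested genes were called. The *Smap1* call was lost without day 0 WT replicate 2, and without day 0 labelled KO replicate 1 there were 2 calls. At day 0, 6 of the 50 had an unadjusted p under 0.05. The share of all tested genes at that unadjusted threshold was not counted for either day, so nothing is read from the unadjusted counts. At day 5 none was called by the edgeR quasi-likelihood test, with 3 at an unadjusted p under 0.05, 2 by the DESeq2 Wald test and 2 by the edgeR exact test. Of all 12597 tested genes 1.63% were called at day 5 by the quasi-likelihood test, and DESeq2 and the exact test called 351 and 454 genes. The median log2 difference of the neighbours was 0.04 at day 0 and -0.02 at day 5, beside -0.00 and 0 over all tested genes.

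On the flanks of *Scly* and *Gm17090*, *Gm7785* had log2 differences of 0.26 and 0.04 at day 0 and day 5 and *Klhl30* of 0.32 and -0.06. On either side of *Wdfy1*, *Ap1s3*, a subunit of a clathrin adaptor, was at -0.11 and -0.07 and *Mrpl44*, a mitochondrial ribosomal protein, at -0.35 and -0.08. Beside *Ptpn4*, *Epb41l5* was at -0.87 and 1.06 and *Tmem177* at -0.22 and 0.27, and beside *1810006J02Rik*, *B230216N24Rik* was at -0.15 and 0.03 and *Gm7967* at 0.14 and -0.29. *Ogfrl1*, on the other flank of *B3gat2* from *Smap1*, was at 0.44 and 0.02. None of these 9 genes was called at either day, although the error of some was wide, as for *Epb41l5* (SE 0.54 at day 0).

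**Figure D4:**
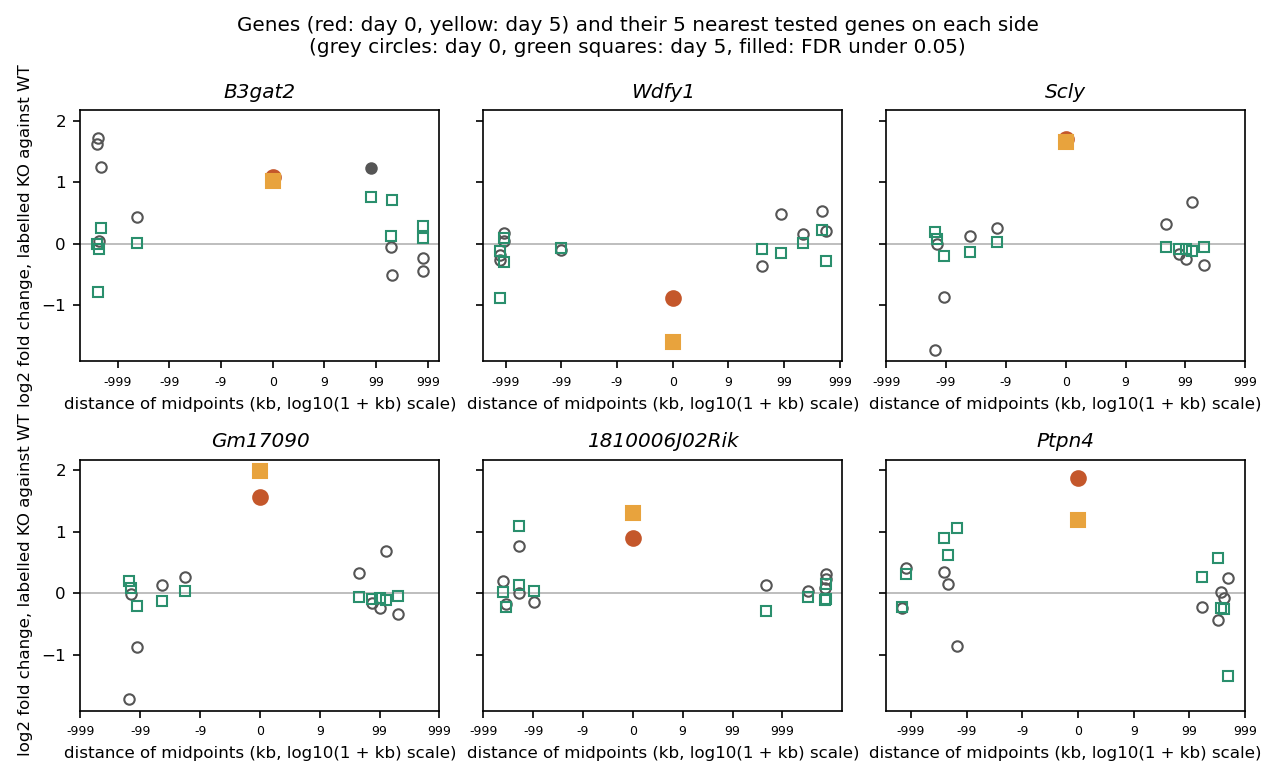
For each of the 6 genes the log2 difference, labelled KO over WT, is plotted at day 0 (circles) and day 5 (squares), with its 5 nearest tested genes on each side placed by the distance between gene midpoints in kb on a log10(1 + kb) axis. Filled grey or green symbols mark neighbours with an adjusted p under 0.05, which holds for *Smap1* at day 0 (1.22) alone.

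On chromosome 1 as a whole 26 of 812 tested genes were called at day 0 (3.20%), 23 at day 5 (2.83%) and 8 at both days (0.985%), against 1.80%, 1.63% and 0.286% of all tested genes. The 8 include the 6 genes described here, which also count among the 26 and the 23, so each of these shares is partly the choice itself. Chromosome 13 had 4 of 447 (0.895%), which include *Tcrg-C2* and *Tcrg-C4*, and no order of the chromosomes is read from such small counts. Leaving out 1 library at a time gave 3 to 8 chromosome 1 genes at both days, with 3 left without day 0 WT replicate 1 or day 5 labelled KO replicate 2, 4 without day 0 WT replicate 2 or day 5 labelled KO replicate 1, and 5 without day 0 labelled KO replicate 1 or day 5 WT replicate 2.

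The other 2 chromosome 1 genes called at both days were lower under the KO label. *Ifi204*, an interferon-inducible gene of the p200 family, had 154 and 124 counts in WT and 2 and 1 in labelled KO libraries at day 0, and 95 and 74 against 9 and 3 at day 5. It has close paralogs, between which reads may be split. *Fcgr3*, a low-affinity receptor for IgG, had 35 and 14 against 7 and 2 counts at day 0 and 63 and 50 against 3 and 3 at day 5.

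**Figure D5:**
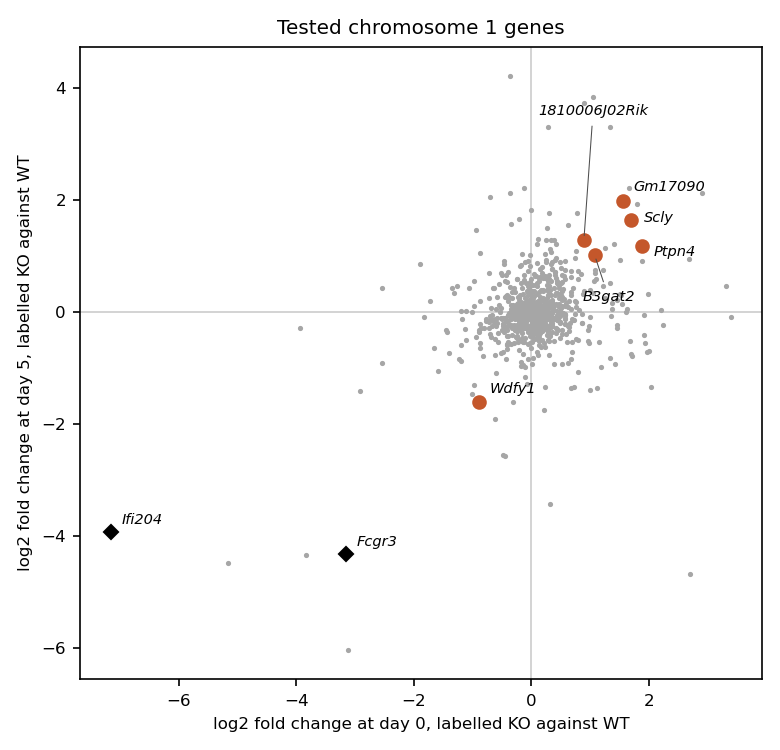
Each of the 812 tested chromosome 1 genes is plotted by its log2 difference, labelled KO over WT, at day 0 (horizontal) and day 5 (vertical), with the 6 genes in orange and the other 2 genes called at both days as black diamonds. *Wdfy1* lies at -0.88 and -1.59, the other 5 lie between 0.90 and 1.98 on both axes, and *Ifi204* and *Fcgr3* lie further out in the lower left.

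Relatives of the 4 protein-coding genes, listed by family or pathway, had 2 genotype calls at day 0 and none at day 5, where 1.80% and 1.63% of all tested genes were called. Of the selenium genes, all 27 were tested, and *Sepp1*, which encodes the selenium carrier selenoprotein P, was the only one called at day 0 (506 and 509 CPM in WT, 296 and 319 CPM in labelled KO, log2 difference -0.72, SE 0.15, adjusted p = 0.0308), with 8 of the 27 at an unadjusted p under 0.05. That is the opposite direction to *Scly*, and the call was lost without either day 0 WT library or without day 0 labelled KO replicate 2. Of the phosphatases, 19 of 20 were tested, and *Dusp6*, an ERK phosphatase, was the only one called at day 0 (42.0 and 38.7 CPM in WT, 25.6 and 23.5 CPM in labelled KO, -0.71, SE 0.15, adjusted p = 0.0340), again opposite to *Ptpn4*, with 2 of the 19 at an unadjusted p under 0.05. This call was lost without any 1 of the 4 day 0 libraries or the 2 day 5 labelled KO libraries. The shares of all tested genes given above are for adjusted p. The share at an unadjusted p under 0.05 was not counted, so nothing is read from the unadjusted counts.

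None of the 7 tested of 10 glucuronyltransferase and proteoglycan linker genes and none of the 21 tested of 25 endosome and TRIF-route genes was called at day 0 by the edgeR quasi-likelihood test, with 2 and 6 at an unadjusted p under 0.05 and none by DESeq2 or the exact test. At day 5 none of the 4 lists had a call, with 2 of the glucuronyltransferase, 2 of the selenium, 5 of the phosphatase and 3 of the endosome genes at an unadjusted p under 0.05. Here too the share of all tested genes at that unadjusted threshold was not counted for either day, and nothing is read from these counts. DESeq2 called 1 phosphatase and 1 endosome gene at day 5, and the exact test 2 of each, with none in the other two lists. The median log2 differences at day 0 and day 5 were 0.17 and 0.47 for the relatives of *B3gat2*, -0.12 and -0.09 for those of *Scly*, 0.07 and 0.10 for those of *Ptpn4* and -0.03 and 0.01 for those of *Wdfy1*.

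In culture these relatives moved in both directions, as did all tested genes, of which 30.9% were called lower and 30.7% higher in the averaged contrast. Averaged over both labels, 5 of the 7 glucuronyltransferase and linker genes fell and 1 rose, where *B3gat2* had not passed. The xylosyltransferases *Xylt1* and *Xylt2*, which start the linker, fell, *Xylt2* from 12.1 and 13.7 CPM (WT and labelled KO) to 4.71 and 6.00 CPM (adjusted p = 0.000625), and the linker phosphatase *Pxylp1* rose from 20.3 and 18.7 to 28.9 and 43.9 CPM (adjusted p = 8.03e-05). Of the selenium genes, 12 rose and 5 fell. *Sepp1* fell from 507 and 307 to 117 and 106 CPM and *Secisbp2*, which reads the selenocysteine insertion signal, from 49.7 and 34.6 to 21.2 and 20.1 CPM, the same direction as *Scly*, whereas *Selm* and *Gpx3* rose from means under 1 CPM to 3.67 and 4.30 and to 2.72 and 2.70 CPM.

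Among the phosphatases 8 rose and 6 fell. *Dusp2* fell from 29.8 and 25.9 to 6.95 and 12.7 CPM and *Ptpn12* from 31.6 and 16.4 to 18.9 and 9.77 CPM, like *Ptpn4*. *Ptpn3*, the closest relative of *Ptpn4*, rose instead, from 0.202 and 0.593 to 2.56 and 2.52 CPM (adjusted p = 0.00172), as did *Ptprj* (CD148), from 0.768 and 0.581 to 5.86 and 9.54 CPM. Of the endosome and TRIF-route genes 10 fell and 3 rose. *Traf3* and *Zfyve26* fell, *Traf3* from 14.4 and 19.9 to 5.55 and 5.79 CPM, and the endosome tether *Eea1* and the adaptor *Ticam2* (TRAM) rose, *Eea1* from 2.54 and 5.70 to 26.9 and 24.8 CPM. The median averaged changes of the lists were -0.63, 0.16, 0.03 and -0.53 for the relatives of *B3gat2*, *Scly*, *Ptpn4* and *Wdfy1*, beside -0.05 over all tested genes.

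The tested genes whose pattern was most like each of the 6 were found by the Pearson correlation of log2 CPM over the 8 libraries, after the mean of each day was subtracted. The 8 points share their libraries and depth with the genes compared, and genes that differ by label will correlate, so these values are a description. For *Scly* they were *Klhl6* (0.993), *Cers4* (0.987) and *Ift22* (0.987), and for *B3gat2* they were *Fryl* (0.984), *Aim2* (0.983) and *Xdh* (0.982). *Smap1* (0.991) was closest to *Ptpn4*, followed by *Itga4* (0.985) and *Plscr1* (0.985). *Wdfy1* was closest to *Gm45055* (0.990), *Fcgr3* (0.986) and *Srp19* (0.985). *1810006J02Rik* was closest to *Pik3r1* (0.993), *Rasa3* (0.990) and *Ramp3* (0.989), and it was itself the closest gene to *Gm17090* (0.989), ahead of *Ahnak* (0.986) and *Wbp1* (0.986).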

How the data were processed

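The deposited files hold whole-number read counts per gene for 8 libraries, which the authors made by aligning reads to the mouse genome (mm10, GRCm38) with HISAT2 2.1.0 and counting with HTSeq 0.11.1, per the labels. Between 21.2% and 24.5% of the records in a library were assigned to a gene. Counts were scaled by TMM factors, filtered with filterByExpr (minimum count 10) and tested in edgeR 4.0.16 (R 4.3.3) by the quasi-likelihood test on a mean per group, with Benjamini-Hochberg adjustment over 12597 genes and a threshold of 0.05. The common coefficient of variation between libraries of a group, beyond counting error, was 15.0%. Positions came from GENCODE M21, in which 46969 of 48321 symbols matched. No molecular identifiers are described, so reads may include PCR copies. The number of libraries, 2 per group, limits the precision.

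The members and gene lists were chosen with earlier results of these data known. Named genes were the 6 members, their nearest tested neighbour on each side and any neighbour called, chromosome 1 genes called at both days, list genes called by genotype or with the 2 largest culture changes in each direction, and the 3 genes most correlated with each member. Alternatives tried were other scalings and filters, DESeq2 1.42.0, the edgeR exact test, the edgeR 4 form, the comparison's 4 libraries only, a replicate block, an offset for GC content and exon length, other neighbourhoods and leaving out each library. Leaving out chromosome 1 genes that share at least 20% of exon length with the other strand was added after seeing the data.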

Additional observations from a re-analysis of the deposited data

Results flagged for a closer look

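The genotype difference of *Satb1*, the targeted gene, differed between the days. It was 0.51 (log2, labelled KO over WT, adjusted p = 0.125) at day 0 and -0.84 (adjusted p = 0.0162) at day 5, and the difference of the 2 was -1.34 (SE 0.21, adjusted p = 0.0269 for the interaction, quasi-likelihood test of edgeR, adjusted by Benjamini-Hochberg). The 2 libraries labelled KO were above both WT libraries at day 0 and below both at day 5.

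*Tcrg-C2*, a gamma chain constant region among the gamma-delta T cell markers, was higher under the KO label at both days, by 2.84 at day 0 and 0.99 at day 5. The difference of these was -1.85 (SE 0.30, adjusted p = 0.0303 for the interaction). Its mean level was 3.10 CPM in WT and 22.6 CPM in labelled KO libraries at day 0, and 166 against 329 CPM at day 5.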

How the results depend on the processing

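The genotype differences of the 6 genes kept their sign in all 18 alternatives. These differences had chosen the genes in the same libraries, so their sign was largely set by the choice. The culture changes that crossed 0 were those of *B3gat2* with library totals only (-0.052 in labelled KO, -0.0017 averaged), and, leaving out 1 library at a time, of *B3gat2* in WT (-0.028 to 0.48, below 0 without day 0 WT replicate 2) and *Gm17090* in labelled KO (-0.20 to 0.12, above 0 without day 0 labelled KO replicate 1). With library totals the median gene's culture change moved by -0.14 for WT and by -0.18 for labelled KO.

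Counts of genes called depended on the libraries. Leaving out 1 library at a time gave 38 to 276 genes at day 0, 32 to 249 at day 5 and 12 to 42 at both days, and on chromosome 1 7 to 30, 8 to 26 and 3 to 8. The neighbours called at day 0 were 0 to 2 and at day 5 0 in each. In the same runs the selenium genes called were 0 to 1 at day 0, 0 to 1 at day 5 and 9 to 13 in WT culture, the phosphatases 0 to 1, 0 to 1, 7 to 12 and, in labelled KO culture, 6 to 11, and the endosome genes 0 to 1 and 0 to 1.

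Without a filter 434 genes were called at day 0, 418 at day 5 and 91 at both days (chromosome 1: 42, 42 and 16), with 1 neighbour at day 5, 1 phosphatase at day 5 and 1 endosome gene at each day. The exact test gave 449, 454 and 81 (chromosome 1: 49, 49 and 17), 2 neighbours at each day, 2 phosphatases at each day and 2 endosome genes at day 5. DESeq2 gave 351 at day 5 and 59 at both days, 37 on chromosome 1 at day 5, 2 neighbours, 1 phosphatase and 1 endosome gene at day 5. The GC and length offset gave 119 genes at day 5. Phosphatases at day 0 were 0 with that offset, with library totals and with the comparison's 4 libraries, and 2 with the edgeR 4 form, which also gave 1 neighbour at day 5. With at least 5 CPM in 2 libraries there were 2 neighbours at day 0, 1 at day 5 and 1 phosphatase at day 5. With 10 neighbours on each side 3 were called at day 0 and 1 at day 5, and without genes that share at least 20% of exon length with the other strand, chosen after seeing the data, 0 at day 0, since this leaves out *Smap1*, the gene called (58.1% shared). The causes of the other shifts were not tested.

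Replicate numbers are shared between groups, but nothing says that they pair the libraries, and deviations of same-numbered libraries correlated between -0.07 and 0.23. With the replicate number as a block, 216 genes were called at day 0, 215 at day 5 and 39 at both days, and 1 endosome gene at day 5. Low counts limit *Gm17090* most.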
